A study of Mus musculus with 6 samples.

Results

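The chemokine receptors of ILC2s were examined as 10 genes: Ccr2, Ccr4, Ccr6, Ccr7, Ccr8, Ccr9, Cxcr3, Cxcr4, Cxcr5 and Cxcr6. Members were the rows of the gene table whose symbol equals one of these names, and all 10 were found among 53278 genes. RNA was sequenced from type 2 innate lymphoid cells (ILC2s) sorted from visceral adipose tissue of C57BL/6 mice aged 8 weeks, after 3 intraperitoneal injections of 1 µg IL-33 per mouse. The sorted cells were kept in culture with IL-2 and IL-7, each at 10 ng/mL. The labels give 48 h of culture. A shorter time is stated for these cells in the study's results text and in a legend. One group also received DTA-1 (5 µg/mL), an agonistic antibody to the costimulatory receptor GITR, and the other received an isotype control antibody. IL-33, IL-2 and IL-7 were therefore common to both groups. The sample titles name the control as isotype, while its deposited counts are headed PBS-GITR. Each group had 3 libraries. The labels do not say whether they came from separate mice or cultures, so p-values measure only the spread between these libraries, which may be technical.

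Chemokine receptors are G-protein-coupled receptors that read gradients of chemokines and steer migration, adhesion and retention of leukocytes in tissue. After binding they signal mainly through Gi proteins to phosphoinositide 3-kinase and Rac, and they are then silenced by receptor kinases, arrestins and RGS proteins. ILC2s are largely tissue-resident lymphocytes, and the receptors they carry are among the signals that place them in adipose tissue, lung, skin and gut.

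The total count was 34557215 to 35131329 in isotype control and 30569351 to 32492849 in DTA-1. Levels below are CPM, read counts scaled to library size after TMM normalization. Where a gene had no count, as many as 3 counts (0.0854 to 0.0981 CPM of total counts, without TMM) remain possible from counting error alone. The ILC2 markers were present, all 12 of 12, with a summed level of 8793 to 9316 CPM in isotype control and 9271 to 9692 CPM in DTA-1. The methods sort ILC2s as lineage- CD45+ ST2+ CD117+ cells. Gata3, the transcription factor of the lineage, had 1525 to 1716 CPM, and Il1rl1, which encodes the IL-33 receptor ST2, had 1022 to 1286 CPM. Kit, which encodes CD117, had 75.8 to 129 CPM. Among the ILC2 markers, Gata3 was lower in DTA-1 without overlap (1688 to 1716 CPM in isotype control, 1525 to 1678 CPM in DTA-1). Il2ra was higher without overlap (1952 to 2240 and 2243 to 2810 CPM), and the groups of the rest overlapped. The summed level hides these opposite directions. Groups without overlap were found for 11.3% of all genes tested. Cdh5, which defines endothelium, was at 0 in all 6 libraries. The summed level of the 8 T cell markers was 43.5 to 57.1 CPM in isotype control and 49.4 to 53.4 CPM in DTA-1. Most of it was Cd3g (36.2 to 48.6 CPM over the 6 libraries), while Cd3e had 2.34 to 3.72 CPM. Between libraries, the chi-square of counts per degree of freedom was 11.4 to 17.0 within isotype control and 11.4 between DTA-1 replicates 2 and 3. For DTA-1 replicate 1 it was 9.64 to 11.3 against each isotype control library but 27.1 and 28.2 against the rest of its own group. The fold changes of the tested receptors and the main counts of the lists are therefore given with and without it.

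The promoter sequences of the 3 receptors with the highest levels per length are shown, since these 3 genes hold most of the receptor transcripts. Each is the 250 bases before the RefSeq start of the gene (GRCm38.p6), written 5′ to 3′ on the gene's strand. The gene positions given further below come from another annotation, where Ccr2 starts at 124101950. Most of the Ccr2 window, with its TTATC, thus lies inside the gene as counted and not before it. The windows of Cxcr6 and Ccr8 reach only slightly past those starts. Capitals mark GATAA on either strand (TTATC on the other), the core read by GATA factors.
Cxcr6, chr9:123806227-123806476, plus strand: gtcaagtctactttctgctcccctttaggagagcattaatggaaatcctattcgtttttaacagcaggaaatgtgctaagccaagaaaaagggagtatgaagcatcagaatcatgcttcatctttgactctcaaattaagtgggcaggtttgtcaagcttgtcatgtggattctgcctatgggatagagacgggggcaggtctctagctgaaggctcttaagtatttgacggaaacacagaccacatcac
Ccr2, chr9:124101933-124102182, plus strand: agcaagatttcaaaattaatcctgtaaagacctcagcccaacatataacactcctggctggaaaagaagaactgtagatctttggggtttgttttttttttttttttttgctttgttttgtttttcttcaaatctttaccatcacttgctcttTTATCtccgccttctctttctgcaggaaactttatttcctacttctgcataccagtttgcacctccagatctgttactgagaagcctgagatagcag
Ccr8, chr9:120091883-120092132, plus strand: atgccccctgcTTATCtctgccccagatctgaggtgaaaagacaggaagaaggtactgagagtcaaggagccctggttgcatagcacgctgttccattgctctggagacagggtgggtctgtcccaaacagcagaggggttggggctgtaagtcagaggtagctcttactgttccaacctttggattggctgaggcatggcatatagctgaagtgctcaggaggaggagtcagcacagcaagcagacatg

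The RefSeq table held such a window for 8 of the 10 receptors. GATAA was found in windows of 4 of them (Ccr2, Ccr6, Ccr8 and Cxcr4) and in 22.5% of all 32544 windows, so a match is common. AGGTCA, the core read by ROR factors, was found for Ccr6 alone and in 14.0% of windows. These are matches of letters and not binding sites.

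Cxcr6 was by far the most abundant receptor. Compared per kb of exon, 4 of the 10 genes stood at levels whose ranges over libraries did not overlap. Ccr7 and Ccr9 overlapped each other below them, and the remaining 4 were near or at 0. Cxcr6, the receptor for the membrane-bound chemokine CXCL16, averaged 992 CPM per kb (range over 6 libraries 918 to 1017). This placed it 20th of 14069 tested genes with a length. Ccr2, which binds CCL2 and related monocyte chemoattractants, averaged 115 CPM per kb (104 to 127), 8.59-fold below Cxcr6. Ccr8, the receptor for CCL1 that is known from skin-homing and type 2 lymphocytes, averaged 52.0 CPM per kb (50.2 to 55.9). Ccr4, the receptor for CCL17 and CCL22, averaged 7.87 CPM per kb (6.33 to 8.87). In each of the 6 libraries these 4 genes stood in this order.

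Below them, Ccr7 and Ccr9 were low. Ccr7, which guides lymphocytes to lymph nodes along CCL19 and CCL21, averaged 0.882 CPM per kb (0.429 to 1.17). Ccr9, the gut-homing receptor for CCL25, averaged 0.608 CPM per kb (0.260 to 0.902), and these neighbours overlapped, with Ccr7 above Ccr9 in 4 of 6 libraries. Cxcr4, Cxcr3 and Ccr6 had at most 12 counts in any library. Cxcr5 had 0 counts in every library. The order was the same when levels were scaled by total counts, which used the same exon lengths. Without division by length, Ccr9 (2.67 to 9.25 CPM) lay above Ccr7 (0.848 to 2.31 CPM). Their exons cover 10260 and 1978 bases, so the order of these 2 depends on the lengths used. The first 4 kept their order, with means of 1915 CPM for Cxcr6, 781 for Ccr2, 61.1 for Ccr8 and 24.3 for Ccr4.

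**Figure D1:**
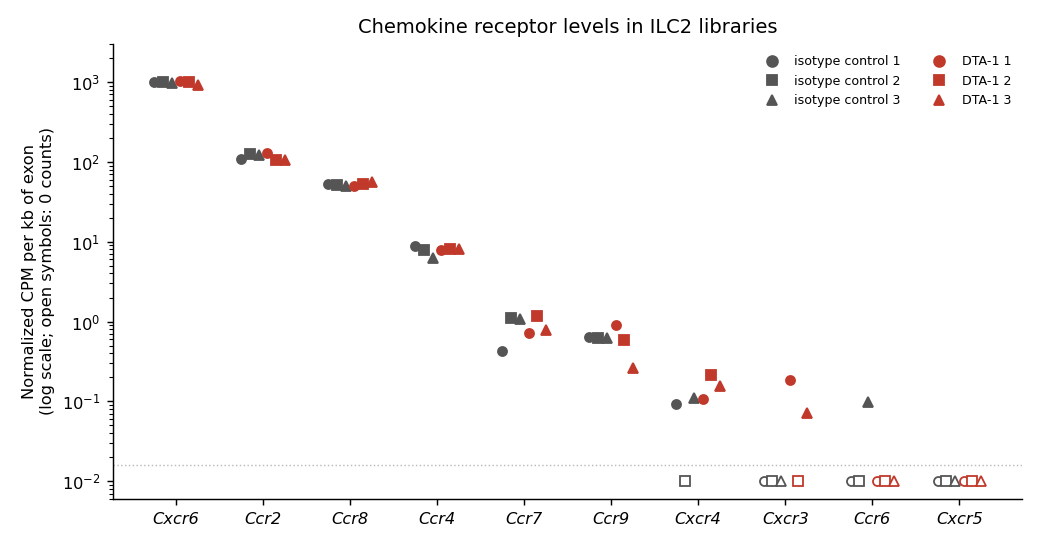
Normalized CPM per kb of exon (log axis) of the 10 receptors in 3 isotype control (grey) and 3 DTA-1 (red) libraries, one symbol per library; open symbols below the dotted line are libraries with 0 counts. Cxcr6 lies at 918 to 1017, above Ccr2, Ccr8 and Ccr4, and Cxcr5 is at 0 in all 6.

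Among the chemokine receptors of the table, Cxcr6 made up 80.6 to 82.6% of the summed level per kb in each library. It also took 0.174 to 0.199% of all counts. Of the summed level per kb, Ccr2 held 8.46 to 10.2% and Ccr8 held 4.02 to 4.91%. The share of Cxcr6 was lowest in DTA-1 replicate 3, where Ccr8 had its highest share.

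The comparison of DTA-1 with isotype control asked which transcripts respond to GITR engagement in activated ILC2s. Genes were called differentially expressed where edgeR's quasi-likelihood test gave an adjusted p under 0.05 and the change was at least 1.5-fold, the study's own limits. Of the 10 receptors, 6 passed the filter on low counts and 0 were differentially expressed, where the background over all 14361 genes tested was 0.0%. At an unadjusted p under 0.05 the count was 0 of 6 receptors against 7.22% of all genes tested. DESeq2's Wald test called 0 receptors and 20 of 20196 genes (0.099%), or 25 of 16489 genes (0.152%) with its filter set for an adjusted p of 0.05, a setting chosen after the data were seen. The receptors were 3 higher and 3 lower in DTA-1, with a median log2 fold change of -0.0040 against -0.0078 over all genes tested. No receptor had groups that did not overlap, which held for 11.3% of genes tested. Without DTA-1 replicate 1, Ccr2 and Ccr9 were lower and Ccr8 higher without overlap, where 31.2% of genes tested had such groups. In these bulk libraries, fewer cells with a transcript and less of it per cell cannot be told apart.

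For Cxcr6, Ccr2, Ccr8 and Ccr4 the 95% interval of the fold change lay within 1.5-fold in either direction, as it did for 58.9% of genes tested. The same 4 receptors had such an interval without DTA-1 replicate 1, against 52.7% of genes. For Ccr7 and Ccr9 the interval reached beyond it, so a change of 1.5-fold was not excluded at this depth and spread.

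**Figure D2:**
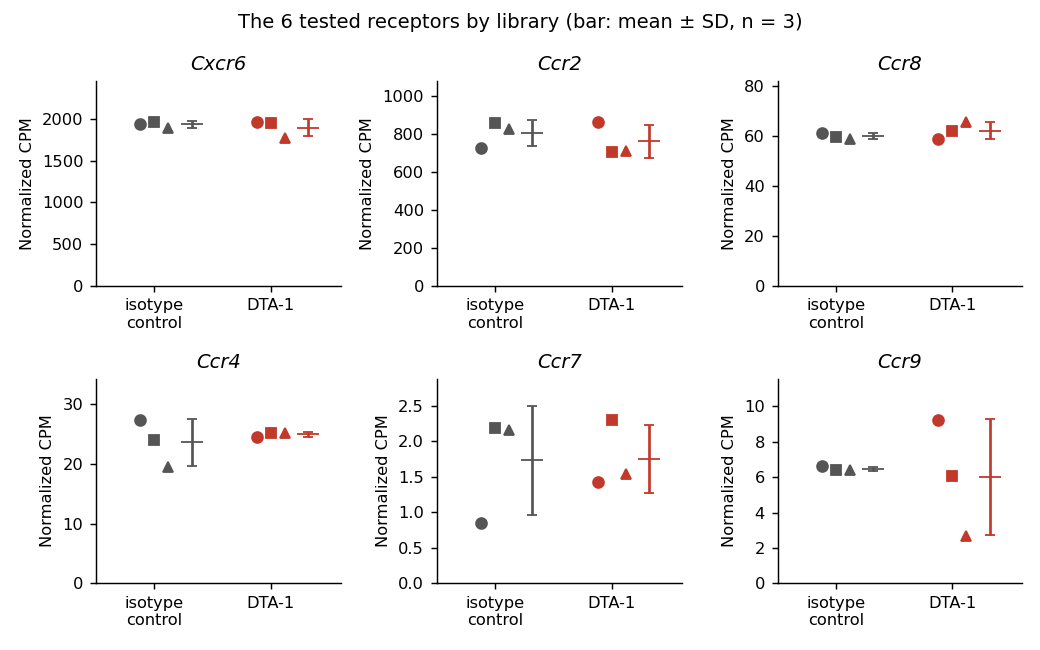
Normalized CPM (linear axes from 0) of the 6 tested receptors in isotype control (grey) and DTA-1 (red), one symbol per library, with the mean and SD (n = 3) beside each group. The groups overlap in all 6 panels, and the widest spread relative to the mean in DTA-1 is that of Ccr9, from 2.67 to 9.25 CPM.

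Cxcr6 had 1945, 1963 and 1892 CPM in isotype control replicates 1, 2 and 3 and 1963, 1954 and 1774 CPM in DTA-1 replicates 1, 2 and 3. DTA-1 replicates 1 and 2 were as high as isotype control, and replicate 3 was the lowest of the 6. The means were 1933 ± 36.6 CPM (SD, n = 3) in isotype control and 1897 ± 107 CPM (SD, n = 3) in DTA-1. The log2 fold change was -0.03 (SE 0.06, 95% interval -0.16 to 0.11, adjusted p = 0.949). Without DTA-1 replicate 1 it was -0.05 (adjusted p = 0.737). Cxcr6 (chromosome 9, 123806475 to 123811760, plus strand) lies within Fyco1 on the opposite strand, shares no exon base with it, and had 56536 to 68832 counts where Fyco1 had 872 to 1317.

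Ccr2 (chromosome 9, 124101950 to 124113557, plus strand) had 727, 858 and 822 CPM in isotype control and 861, 704 and 711 CPM in DTA-1. DTA-1 replicate 1 was the highest of the 6 libraries, while DTA-1 replicates 2 and 3 were the lowest. The means were 802 ± 67.8 CPM (SD, n = 3) and 759 ± 88.9 CPM (SD, n = 3). The log2 fold change was -0.08 (SE 0.09, 95% interval -0.28 to 0.12, adjusted p = 0.883). Without DTA-1 replicate 1 it was -0.18 (SE 0.07, 95% interval -0.34 to -0.02) by edgeR, with an unadjusted p of 0.0293 and an adjusted p of 0.287. In that fit 14.0% of 14911 genes had an unadjusted p under 0.05, and 111 genes (0.744%) but 0 receptors were differentially expressed. Groups that did not overlap were also common there, at 31.2% of genes. The deposited counts of Ccr2 were not whole in any of the 6 libraries, and how the authors' software assigned reads that fit several genes was not tested.

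Ccr8 (chromosome 9, 120092114 to 120094906, plus strand) had 61.4, 59.7 and 58.9 CPM in isotype control and 59.0, 62.0 and 65.7 CPM in DTA-1. DTA-1 replicates 2 and 3 were the highest, and replicate 1 lay within the isotype control range. The means were 60.0 ± 1.24 CPM and 62.2 ± 3.37 CPM (SD, n = 3 each). The log2 fold change was 0.05 (SE 0.08, 95% interval -0.12 to 0.23, adjusted p = 0.921), and 0.09 without DTA-1 replicate 1 (adjusted p = 0.699).

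Ccr4 (chromosome 9, 114490316 to 114504916, minus strand) had 27.4, 24.1 and 19.6 CPM in isotype control and 24.5, 25.3 and 25.2 CPM in DTA-1. All 3 DTA-1 libraries lay within the isotype control range. The means were 23.7 ± 3.94 CPM and 24.99 ± 0.414 CPM (SD, n = 3 each), with a log2 fold change of 0.08 (SE 0.13, 95% interval -0.21 to 0.37, adjusted p = 0.935). This direction turned to -0.04 without isotype control replicate 3, the lowest library.

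Ccr9 (chromosome 9, 123678439 to 123784330, plus strand) had 6.61, 6.42 and 6.41 CPM in isotype control and 9.25, 6.09 and 2.67 CPM in DTA-1. The isotype control libraries were alike, and the DTA-1 libraries lay 1 above and 2 below them. The means were 6.48 ± 0.117 CPM and 6.00 ± 3.29 CPM (SD, n = 3 each). The log2 fold change was -0.11 (SE 0.35, 95% interval -0.88 to 0.66, adjusted p = 0.963). It was -0.57 without DTA-1 replicate 1 (adjusted p = 0.483) and 0.24 without DTA-1 replicate 3. Ccr9 overlaps 6 annotated genes, and 2201 of its 10260 exon bases (21.5%) are shared with them. Whether counting used strand is not given in the sources used here, so reads of these stretches may belong to either gene.

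Ccr7 (chromosome 11, 99144196 to 99155077, minus strand) had 0.848, 2.20 and 2.15 CPM in isotype control and 1.42, 2.31 and 1.54 CPM in DTA-1, from 30 to 77 counts. Isotype control replicate 1 was the lowest of the 6, and the groups overlapped throughout. The log2 fold change was 0.02 (SE 0.42, 95% interval -0.91 to 0.95, adjusted p = 0.995). It was -0.30 without isotype control replicate 1 and -0.22 without DTA-1 replicate 2. Without DTA-1 replicate 1 it was 0.15 (adjusted p = 0.928 by edgeR).

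The remaining 4 receptors were too low to test. Cxcr4, the receptor for CXCL12 that retains cells in bone marrow, reached 6, 0 and 7 counts with isotype control and 6, 12 and 9 counts with DTA-1. Cxcr3, which binds the interferon-induced chemokines CXCL9, CXCL10 and CXCL11 and is known from type 1 lymphocytes, was at 0 counts in the 3 isotype control libraries and reached 10, 0 and 4 counts with DTA-1. Both were thus at or near the limit of detection, and the DTA-1 libraries with Cxcr3 counts were replicates 1 and 3. Ccr6, the receptor for CCL20 that is typical of type 17 lymphocytes and ILC3s, had 8 counts in isotype control replicate 3 and 0 in the other 5 libraries. Cxcr5, the B cell follicle receptor for CXCL13, was not detected, which allows up to 3 counts per library.

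**Figure D3:**
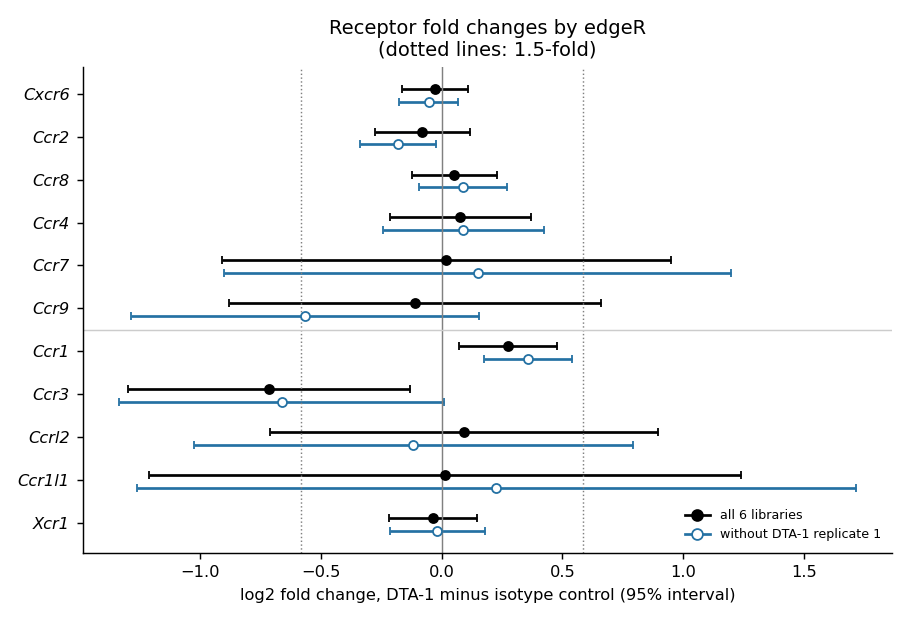
Log2 fold change of DTA-1 against isotype control with its 95% interval for the 6 tested receptors (above the grey line) and 5 other chemokine receptors (below it), with all 6 libraries (black) and without DTA-1 replicate 1 (blue); dotted lines mark 1.5-fold. The intervals of Cxcr6, Ccr2, Ccr8 and Ccr4 stay between the dotted lines in both fits, and those of Ccr7 and Ccr9 do not.

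Of 9 other chemokine receptors, 5 were tested, 3 higher and 2 lower in DTA-1, and 0 were differentially expressed with or without DTA-1 replicate 1. Ccr1, an inflammatory receptor for CCL3 and CCL5, had 66.7 ± 2.99 CPM in isotype control and 80.6 ± 8.82 CPM in DTA-1 (SD, n = 3 each), and its groups did not overlap. Its log2 fold change was 0.27 (SE 0.09) with an unadjusted p of 0.0129 and an adjusted p of 0.628 by edgeR, and adjusted p ranged from 0.0682 to 0.9985 over the alternatives. Without DTA-1 replicate 1 it was 0.36, with the lowest of these adjusted p. Ccr3, the eotaxin receptor, had 6.65 ± 0.774 CPM in isotype control and 4.05 ± 1.40 CPM in DTA-1 (SD, n = 3 each), also without overlap. Its log2 fold change was -0.71 (SE 0.27) with an unadjusted p of 0.0210 and an adjusted p of 0.647 by edgeR (0.364 to 0.9985 over the alternatives), and -0.66 without DTA-1 replicate 1. No other tested chemokine receptor had groups that did not overlap. Over all genes tested, 11.3% had such groups and 7.22% had an unadjusted p under 0.05 by edgeR. Beside these values, the summed level of the 3 endothelial markers, nearly all of it Pecam1, was 18.4 to 24.4 CPM in isotype control and lay at 10.6 to 18.3 CPM in DTA-1. The 7 macrophage markers summed to 2.31 to 4.28 CPM and 1.22 to 4.64 CPM, and the 4 mast cell and basophil markers to 6.41 to 10.8 CPM and 8.77 to 22.2 CPM. The mast cell and basophil markers differed in direction. Cpa3 and Fcer1a had log2 fold changes of 1.03 and 0.59, and Mcpt8, at most 1.16 CPM, had -0.96, all with overlapping groups. The 5 fibroblast markers summed to 2.20 to 8.31 CPM in isotype control and 0 to 3.98 CPM in DTA-1. Among them Col1a1 and Pdgfra, each at most 1.93 CPM, were lower in DTA-1 without overlap (adjusted p = 0.491 and 0.452). The part of these markers in the receptor values was not tested. Xcr1 had 46.7 ± 0.872 CPM and 45.6 ± 1.23 CPM (SD, n = 3 each). Ccrl2 averaged 3.03 and 3.23 CPM, and Ccr1l1 averaged 0.473 and 0.478 CPM. The log2 fold change of Ccrl2 turned from 0.09 to -0.12 without DTA-1 replicate 1, while Ccr1, Ccr3, Xcr1 and Ccr1l1 kept their direction. Cx3cr1, Cxcr2 and the atypical receptors Ackr2 and Ackr4 reached at most 15, 12, 19 and 12.2 counts, and 0 of the 4 atypical receptors could be tested.

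Of the 10 receptors, 6 lie on chromosome 9, and Ccr9, Cxcr6 and Ccr2 lie in one run of neighbours with Xcr1, Ccr1, Ccr1l1 and Ccr3. Along that run, Cxcr6 starts 128 kb after Ccr9, and Xcr1 starts 45.8 kb after Cxcr6. Ccr2 starts 80.0 kb after Ccr3. Levels of neighbours differed widely, from 992 CPM per kb for Cxcr6 to 0.608 for Ccr9 on one side and 10.4 for Xcr1 on the other. Ccr2 at 115 CPM per kb stood next to Ccr3 at 1.63.

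**Figure D4:**
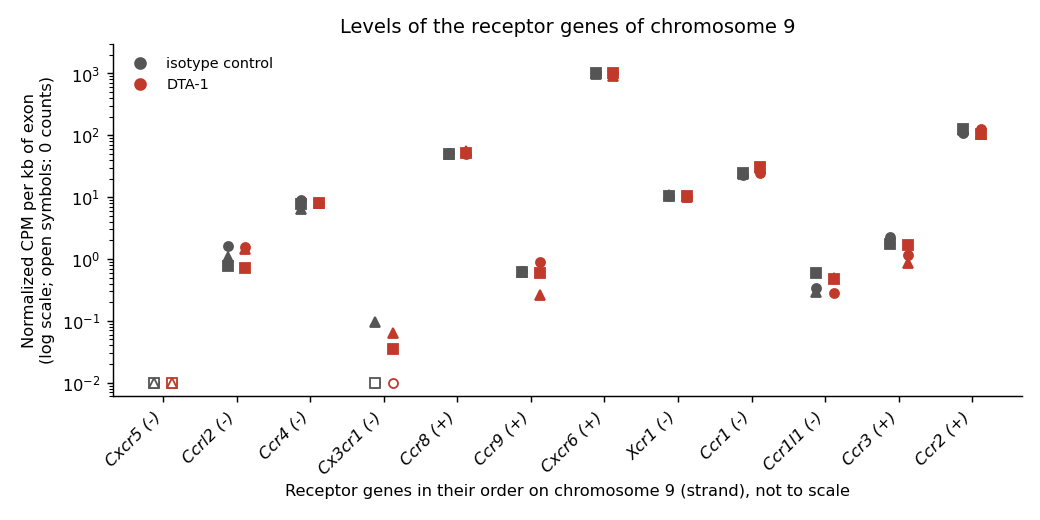
Normalized CPM per kb of exon (log axis) of 12 receptor genes of chromosome 9 in their order along it, with the strand in brackets, in isotype control (grey) and DTA-1 (red) libraries; spacing is not to scale and open symbols are libraries with 0 counts. Cxcr6 stands above the genes on either side of it, and Ccr2 above Ccr3.

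The genes whose log2 CPM followed the 3 most abundant receptors most closely over the 6 libraries were sought among 8722 genes with at least 10 CPM. For Cxcr6 they were Fam3a (Pearson r = 0.985) and Kif2c (r = 0.977), for Ccr2 they were Nr3c1, the glucocorticoid receptor (r = 0.987), and Acvr2a (r = 0.986), and for Ccr8 they were Gltp (r = 0.984) and Pea15a (r = 0.983). All points share the 6 libraries and their scaling. With 6 points and so many genes high values are common, and 63, 102 and 94 genes had r above 0.9 with Cxcr6, Ccr2 and Ccr8.

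Ligands of the 10 receptors were scarce in these cells. Of 19 listed, 18 were in the table and 4 were tested, 2 higher and 2 lower, and 0 were differentially expressed. The highest was Ccl25, the ligand of CCR9, at 5.73 ± 0.518 CPM in isotype control and 5.37 ± 0.186 CPM in DTA-1 (SD, n = 3 each). Ccl2, the ligand of CCR2, had 0.254, 0.627 and 0.368 CPM in isotype control and 0.453, 0.192 and 2.73 CPM in DTA-1, so 1 library set its mean. Without DTA-1 replicate 1, 6 ligands were tested, 4 higher and 2 lower, again with 0 differentially expressed. The median log2 fold change was 1.67 there and 0.45 with all 6 libraries, but the 2 medians cover different genes. Ccl1 and Cxcl10 passed the filter on low counts only there, through DTA-1 replicates 2 and 3, where both were highest. Their direction and the higher median were thus partly set by the filter. Ccl1, a ligand of CCR8, had 10, 0 and 1 counts with isotype control and 0, 41 and 38 counts with DTA-1, so replicates 2 and 3 were above every other library. It could not be tested with all 6 libraries. The fit without DTA-1 replicate 1 put its log2 fold change at 3.55 (SE 1.05), with an unadjusted p of 0.00759 and an adjusted p of 0.159 by edgeR. Ccl1 entered that fit through the same 2 libraries where it was high, so these values are no independent test of a change.

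Genes that signal downstream of the receptors were all expressed above the filter. Of the 18 listed, 18 were tested, 11 higher and 7 lower in DTA-1, with 0 differentially expressed and a median log2 fold change of 0.0077. The interval lay within 1.5-fold for 17 of them, against 58.9% of all genes tested. At an unadjusted p under 0.05 by edgeR the count was 0 with all 6 libraries, against 7.22% of all genes tested. Without DTA-1 replicate 1 it was 4 (Ptk2b and Rac2 higher, Rap1a and Rap1b lower), against 14.0% of 14911 genes. The adjusted p of these 4 ran from 0.119 to 0.322, and 0 were differentially expressed. In that fit 9 of the 18 were higher and 9 lower, with a median log2 fold change of 0.0065. Coro1a, an actin regulator of lymphocytes, had 1710 ± 88.0 CPM and 1675 ± 45.4 CPM, and Rac2, the haematopoietic Rac GTPase, had 1021 ± 36.8 CPM and 1093 ± 34.7 CPM (SD, n = 3 each). Among 13 genes of desensitization, 4 were higher and 9 lower, 0 were differentially expressed and the median log2 fold change was -0.0576. At an unadjusted p under 0.05 by edgeR the count was 1, against 7.22% of all genes tested. This was Rgs19, lower in DTA-1 (unadjusted p = 0.0273, adjusted p = 0.655). Without DTA-1 replicate 1, 5 were higher and 8 lower, 0 were differentially expressed and the median was -0.112. In that fit 1 gene, Rgs1, had an unadjusted p under 0.05 by edgeR (lower, adjusted p = 0.159), against 14.0% of all genes. Rgs1, which dampens Gi signalling, had 370 ± 12.6 CPM and 338 ± 25.005 CPM, and the receptor kinase Grk6 had 332 ± 6.22 CPM and 310 ± 4.93 CPM (SD, n = 3 each). Grk6 (adjusted p = 0.738) and Rgs19 were the 2 genes of this list whose groups did not overlap, both lower in DTA-1. Such groups were found for 11.3% of all genes tested.

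**Figure D5:**
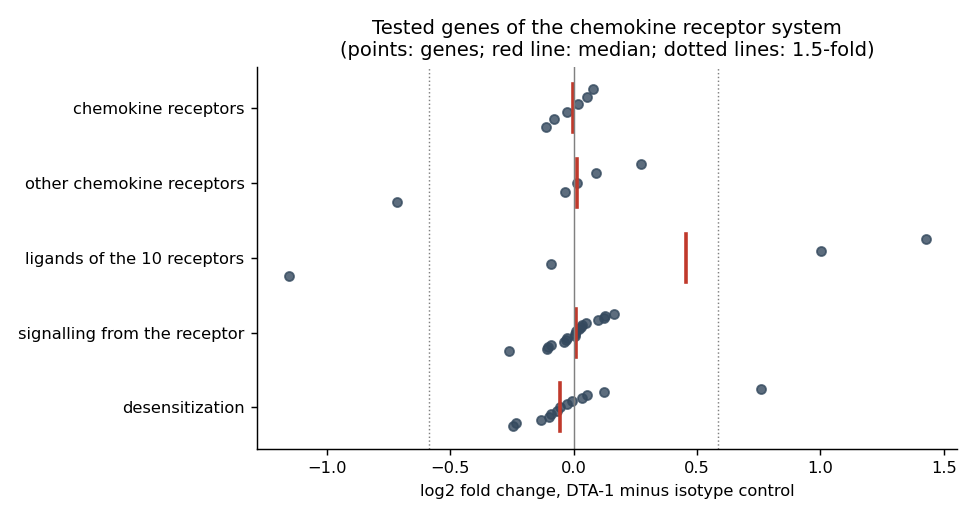
Log2 fold changes of the tested genes in the 10 receptors, the other chemokine receptors, the ligands, the signalling genes and the desensitization genes, one point per gene with the median in red; dotted lines mark 1.5-fold. The 6 tested receptors lie between -0.11 and 0.08, and the wide spread of the ligands comes from 4 genes.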

How the data were processed

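RNA of sorted ILC2s was sequenced in 3 isotype control and 3 DTA-1 libraries, from 10 ng of RNA each. The authors deposited expected counts per gene, estimates that need not be whole and were not normalized. The submitters' processing notes name bcl2fastq 2.17.1.14, STAR 2.5.3a, Partek and build mm10. The annotation release, the strand setting and the treatment of shared reads are not given in the sources used here. About 81% of values were whole (within 0.001), and 0 columns were left unmapped. Symbols were matched to GENCODE release M21, where 47669 of 49618 shared genes had the same start and end once 1 was taken from the deposited stop (39 as written).

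Expected counts were rounded and fitted in R 4.3.3 with edgeR 4.0.16 (filterByExpr, TMM, robust quasi-likelihood F test, Benjamini-Hochberg adjustment), on all 6 libraries with no covariate. The SE was the log2 fold change divided by the square root of F. DESeq2 1.42.0 was an alternative. CPM per kb used the union of annotated exons. On simulated data with a 2-fold change in 200 of 14159 genes, edgeR recovered 179 (89.5%) with 6 false calls. The simulation gave every gene the same dispersion (spread between libraries) and left the lowest genes unchanged. It held no library that differed from its group as DTA-1 replicate 1 does. The recovered share is therefore not the power of the real comparison. The labels give no batch. Some items are not reported here.

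The members and lists were chosen with earlier results of these data known. Named genes are the 10 members, other or atypical receptors with at least 10 counts in a library, and the 2 genes of highest mean CPM in each other list with any member at an unadjusted p under 0.05 and 1.5-fold. They also include the 2 genes of at least 10 CPM most correlated with each of the 3 most abundant members, and neighbours or overlapping genes. The counts of Ccr10, Cxcr1, Ackr1 and Ackr3 were below that limit. Ptk2b, Rap1a, Rap1b, Rgs19, Cxcl10, Cd3g, Col1a1, Pdgfra, Il2ra, Cpa3, Fcer1a and Mcpt8 were named after their values were seen. Alternatives were other scalings, filters and tools, a replicate block, each library left out, and other thresholds.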

Additional observations from a re-analysis of the deposited data

How the results depend on the processing

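No setting made a chemokine receptor differentially expressed: the count was 0 under all alternatives run. The count over all genes was 0 with all 6 libraries by edgeR, 2 with no filter on low counts, 20 by DESeq2's Wald test and 337 at an unadjusted p with 1.5-fold. Setting DESeq2's filter for 0.05, chosen after the default count had been seen, gave 25. Leaving out 1 library gave 0 to 111 genes, the highest without DTA-1 replicate 1. With the replicate number as a block the count was 1. The labels do not say whether equal numbers pair the samples. Deviations from the group means of same-numbered libraries correlated at -0.0069, -0.0028 and 0.015, and those of different numbers at -0.0145 to 0.0161. With 3 libraries per group these values cannot settle whether the samples are paired. The block changed no call of a receptor.

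Of 78 fold changes of receptors under alternatives, 72 kept their direction and 6 turned, with a smallest adjusted p of 0.287. Ccr7 turned to -0.023 with total counts. Leaving out 1 library gave ranges of -0.053 to 0.019 for Cxcr6, -0.044 to 0.20 for Ccr4, -0.57 to 0.24 for Ccr9 and -0.30 to 0.23 for Ccr7. The cause was not tested. Depth limits Cxcr4, Cxcr3, Ccr6 and Cxcr5, with at most 12 counts, where a difference was not detectable.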
